A study of Mus musculus with 4 samples.

Results

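Capillary endothelial cells of the mouse heart were described here as the endothelial cells richest in 6 transcripts, Car4, Aqp1, Timp4, Rgcc, Gpihbp1 and C1qtnf9, counted together per cell and divided by the cell's total count. In each library the top 25% of endothelial cells by this score were taken, which gave 1717 capillary cells among 6867 endothelial cells, 21581 retained barcodes and 26765 deposited barcodes. An endothelial cell had at least 4 UMIs (unique molecular identifiers, each one captured RNA molecule) of Pecam1, Cdh5 and Egfl7 together, at most 3 of Dcn, C1qa, C1qb, C1qc, Kcnj8 and Vtn, and at most 1 of Npr3 and Cytl1, with at least 1000 UMIs in all and at most 20% from mitochondrial genes. The study sequenced single cells of offspring hearts, from 2 libraries of a high_fibre group and 2 of a control_diet group. The high_fibre dams ate a diet rich in resistant starch (SF11-025), and the control_diet dams a diet low in resistant starch (SF09-028), through pregnancy and lactation. All offspring went onto the same standard chow when weaned at 3 weeks and were studied at 6 weeks, so the groups differ in maternal and early diet and not in the diet at sampling. Strain, sex and the number of animals per library are not given in the sources used here, so p-values measure only the spread between these libraries. Cells came from hearts perfused with collagenase IV and dispase II and were sorted as live, metabolically active and nucleated.

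Capillary endothelium lines the finest vessels of the heart, where fatty acids and oxygen leave the blood for the cardiomyocytes. Heart capillary cells capture lipoprotein lipase on their luminal face through Gpihbp1, take up the released fatty acids through Cd36 and carry them bound to Fabp4, and their junctions, with VE-cadherin (Cdh5) and claudin 5 (Cldn5), set what passes between cells. Capillaries grade into arterioles on one side and venules on the other, so a capillary class is a stretch of a continuum.

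The 4 libraries gave 411 capillary cells in high_fibre 1, 569 in high_fibre 2, 436 in control_diet 1 and 301 in control_diet 2, with 1655955 to 2467908 UMIs summed over them per library. Values below are UMIs scaled to a total of 1000000 per library and class (CPM) unless another unit is named, and values of 4 libraries stand in the order just given. Capillary cells were shallower than the other endothelial cells, with median UMIs of 3932, 4078, 4354.5 and 5219, against 5024, 4879.5, 6017 and 6535.5. Cells of both sexes were present in every library. Cells with UMIs of Y-linked genes but none of Xist are called Y-only here, and cells with the opposite pattern Xist-only. Y-only cells were 74.5% and 40.3% of the sexed capillary cells in the high_fibre libraries, against 16.8% and 40.7% in the control_diet libraries. In all, 884 barcodes occurred in 2 or more libraries. They were 27.0% of the barcodes of control_diet 2, with a median of 17333 UMIs there, against 7.30% to 10.2% and medians of 630 to 685 UMIs in the other 3 libraries. Such a barcode was held by 1, 3, 3 and 5 capillary cells, and diet calls that changed without them are given below.

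The score formed one continuous distribution in every library, with no gap at the threshold. The lowest capillary cell had 88.4 and 86.3 rule-gene UMIs per 10000 UMIs in the high_fibre libraries and 74.9 and 77.1 in the control_diet libraries, and the highest endothelial cell left out had 88.3, 86.3, 74.9 and 77.0. Capillary cells within 10% of the threshold were 23.9% to 28.7% of the class. A single threshold over all libraries, 81.7, would have taken 30.1% and 28.0% of the endothelial cells of the high_fibre libraries, against 18.3% and 21.9% in the control_diet libraries. With Timp4 left out of the score the shares were 27.8% and 28.3% against 19.9% and 22.2%, and the groups did not overlap. With each of the other 5 genes left out in turn the high_fibre shares also stayed above the control_diet shares. By the full score the shares were 31.0% and 26.8% against 17.2% and 19.6% among Y-only cells. Among Xist-only cells they were 22.6% and 26.7% against 18.5% and 22.1%. The groups overlapped among Xist-only cells with Rgcc left out (19.8% and 27.2% against 19.5% and 22.7%). They also overlapped there with Gpihbp1 left out (20.3% and 25.7% against 21.2% and 23.7%). Endothelial cells outside the capillary class were shallower in high_fibre (medians of 5024 and 4879.5 UMIs) than in control_diet (6017 and 6535.5 UMIs). The part of depth in these shares was not tested. No test was made of the shares themselves, since 2 libraries against 2 allow no exact p below 0.333.

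**Figure D1:**
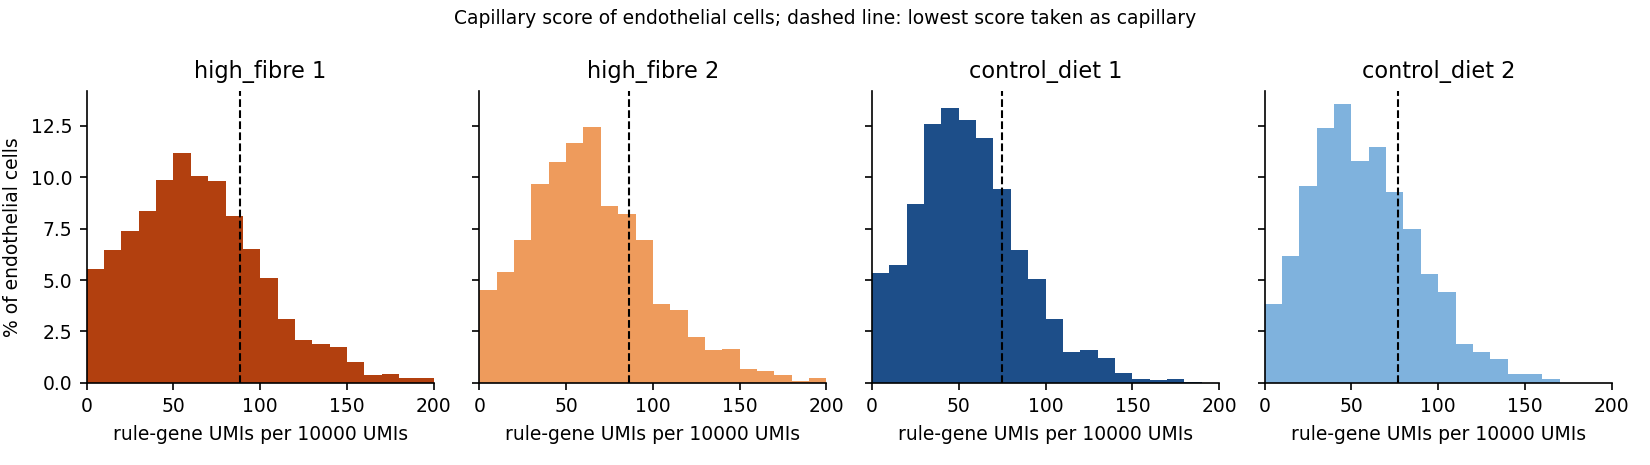
Distribution of the capillary score (rule-gene UMIs per 10000 UMIs, x axis, shown to 200) as a percentage of endothelial cells (y axis, bins of 10) in each library. The dashed line is the lowest score taken as capillary, 88.4 and 86.3 in the high_fibre libraries and 74.9 and 77.1 in the control_diet libraries, and it falls on the descending side of the distribution in all 4.

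Most capillary cells carried most of the 6 rule genes. All 6 were detected in 58.4% to 66.1% of capillary cells, and at least 4 in 97.2% to 99.3%. Timp4, an inhibitor of matrix metalloproteinases, had 1831, 1447, 1032 and 1146 CPM in capillary cells and 488, 432, 294 and 311 CPM in the other endothelial cells, a mean log2 ratio of 1.82. Aqp1, the water channel, stood at 2972, 3178, 2730 and 2783 CPM against 963, 1010, 885 and 1006 CPM (1.59), and Car4, a membrane-bound carbonic anhydrase, at 758, 725, 742 and 719 CPM against 321, 295, 351 and 307 CPM (1.20). The ratios were 1.02 for Gpihbp1, 1.01 for Rgcc, a regulator of the cell cycle, and 0.76 for C1qtnf9, a secreted C1q and TNF related protein. These genes chose the cells, so the ratios are a description. Cells of 2 other lineages, gated as low in Pecam1, Cdh5 and Egfl7, are set beside them as a description. Timp4 and Aqp1 helped choose the capillary cells, so their detection there was set by the rule and gives no check of the class. In cells thinned to 1000 UMIs, Timp4 was detected in 50.9% to 69.3% of capillary cells, 21.8% to 29.98% of other endothelial cells and at most 0.361% of fibroblast-gated (Dcn-positive) or macrophage-gated (C1q-positive) cells. Unthinned, Timp4 was detected in 87.8% to 92.5% of capillary cells and in 1.19% to 2.53% of those gated cells, whose median depth was 9616.5 to 16160.5 UMIs. Aqp1 was found in 89.3% to 96.3% of capillary cells and 4.13% to 11.1% of those gated cells unthinned, and in at most 1.40% of them thinned. Most of the other endothelial cells also carried rule genes. Unthinned, Gpihbp1 was detected in 93.3% to 95.8% of them and Rgcc in 85.8% to 87.6%. Thinned, Gpihbp1 was still detected in 66.7% to 74.1% of them. Other rule genes differed more in detection. Thinned, Aqp1 was detected in 80.3% to 86.5% of capillary cells and 43.4% to 48.2% of the other endothelial cells. For Car4 the thinned shares were 48.0% to 51.2% against 25.1% to 26.6%. The 2 classes thus differ in the level of these genes and in how often they are detected, and presence alone does not separate them.

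**Figure D2:**
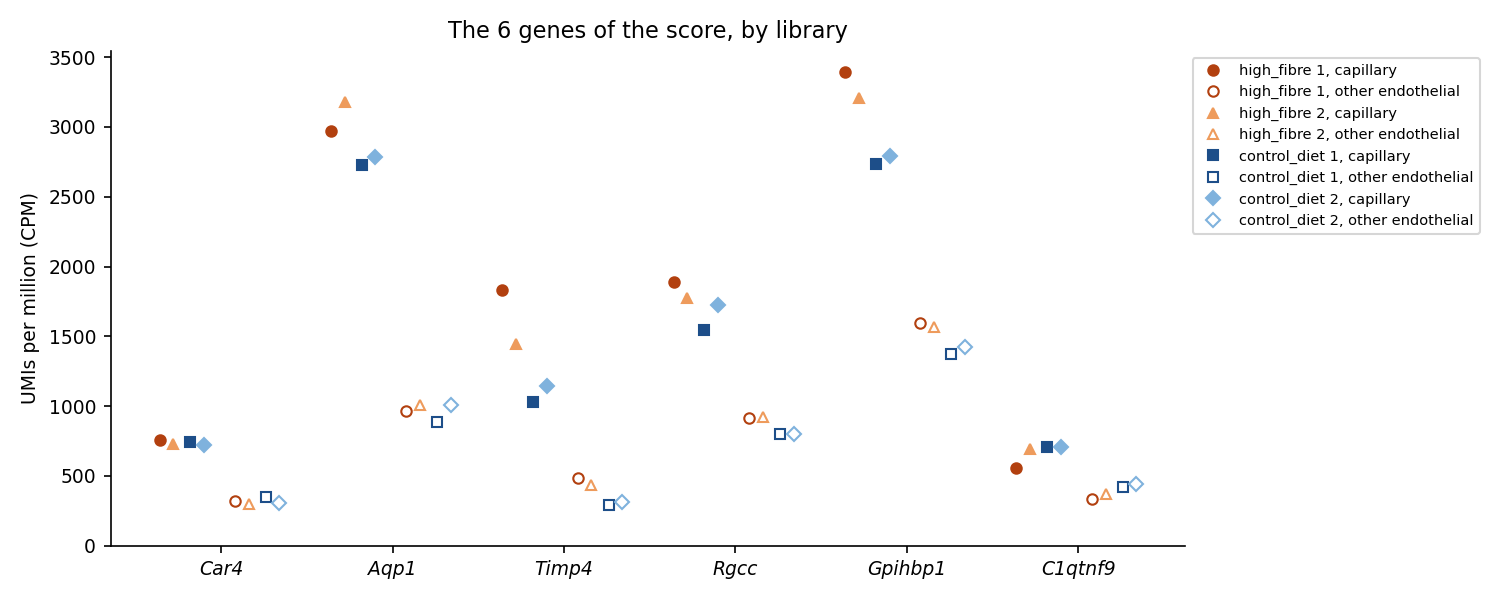
CPM of the 6 rule genes (y axis) in each library, in capillary cells (filled) and other endothelial cells (open), with the high_fibre libraries left of the control_diet libraries. Every filled point lies above the open points of the same gene, and for Timp4 the filled high_fibre points, 1831 and 1447 CPM, lie above both control_diet points, 1032 and 1146 CPM.

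Outside the rule, capillary cells carried more of the fatty acid and lipoprotein programme than the other endothelial cells. These comparisons describe the same cells that were chosen by their expression and therefore carry no test. Ratios are log2 of CPM plus 5, and the median over the 5862 genes with at least 20 CPM in either class in every library was -0.02, with 1110 genes higher and 1544 lower in 4 of 4 libraries. Of 15 fatty acid and lipoprotein genes measured at that level, 11 were higher in 4 of 4 libraries and 1 was lower, with a median of 0.33. Fabp4, the cytosolic fatty acid binding protein, had 33895, 34040, 28692 and 32078 CPM in capillary cells, against 21910, 24277, 21192 and 22566 CPM. Cd36, the fatty acid translocase, had 4150, 3862, 3179 and 3908 CPM, against 2946, 2937, 2492 and 2897 CPM. Both were higher in every library, by means of 0.52 and 0.42. Lpl, lipoprotein lipase itself, was 0.66 higher, Pparg, the nuclear receptor that drives lipid uptake genes, 0.49 higher, and Angptl4, an inhibitor of lipoprotein lipase, 0.96 higher. Abca1, a cholesterol exporter, was the gene lower in every library, by a mean of -0.88.

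The largest differences outside the rule were on the low side, with lymphatic, erythroid and arterial genes among them. Only 4 genes were at least 2-fold higher in capillary cells in every library, and 36 were at least 2-fold lower. Of 17 arterial genes 14 were lower in 4 of 4 libraries and 1 higher, with a median of -0.52. Gja4, the arterial connexin 37, had 2.20, 1.22, 2.79 and 0.604 CPM in capillary cells, against 33.4, 37.3, 34.8 and 27.3 CPM. Sema3g and Hey1, an arterial semaphorin and a Notch target, were lower by means of -1.83 and -1.62. The venous list was less uniform, with 6 of 11 genes lower and 3 higher in every library, Nr2f2, the venous fate regulator COUP-TFII, at -0.98 and von Willebrand factor (Vwf) at -1.47. All 3 lymphatic genes were lower, Lyve1, a hyaluronan receptor, at 1.65, 2.84, 1.39 and 2.42 CPM, against 81.8, 114, 78.3 and 43.2 CPM. Of 6 cell cycle genes 5 were lower, and of 18 immediate early genes 9 were lower and none higher in 4 of 4 libraries.

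Among the 15 genes with the highest ratios, 5 were rule genes and 1 was Angptl4. Bmp6, a BMP ligand secreted by endothelium, had 118, 129, 131 and 107 CPM in capillary cells, against 51.7, 59.9, 55.7 and 49.5 CPM (1.09). Adh1, an alcohol dehydrogenase that also oxidises retinol, stood at 1.07, Cxcl9, an interferon gamma induced chemokine, at 0.90, and Ntf3, the neurotrophin NT-3, at 0.82. The remaining ones were Bbs9, Fam57b, Hrct1, Klra9 and Lnx1, at 0.84 to 1.06. The lowest ratios belonged to lymphatic, erythroid and matrix genes, among them Ccl21a (1 of 2 genes with that symbol) at -6.47, Hbb-bs at -5.61, Mmrn1 at -4.02 and Fbln5, an elastic fibre protein, at -3.44.

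Junction genes were modestly higher, with 13 of 20 higher and 4 lower in every library and a median of 0.21. Cldn5 had 1779, 1543, 866 and 1015 CPM in capillary cells, against 1023, 896, 681 and 712 CPM, and Cdh5 had 1337, 1404, 1287 and 1523 CPM, against 1097, 1183, 1147 and 1293 CPM. Among VEGF, angiopoietin and BMP signalling genes 12 of 23 were higher and 8 lower, and Id1, a BMP target, was 0.35 higher. Of 13 MHC class I genes 9 were higher in every library and none lower. Of the 12 genes listed as capillary markers outside the rule 10 were higher, Slc28a2, a nucleoside transporter, by 0.79 and Tcf15, a transcription factor of heart endothelium, by 0.64. Btnl9, a butyrophilin-like protein, and Rbp7, a retinol binding protein, went the other way, at -0.77 and -0.51, lower in 4 of 4 libraries.

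The score ordered these genes beyond the 25% line. Fabp4 was lower at each step from the first quartile of the score to the last in all 4 libraries, with 13861, 15958, 15171 and 17629 CPM in the last, and Cd36 and Cd300lg followed the same order. Gja4 was higher at each step, with 77.0, 82.4, 83.1 and 66.8 CPM in the last quartile. Vwf stayed between 9.80 and 30.4 CPM over the first 3 quartiles and stood at 67.7 to 120 CPM in the last. Btnl9 was higher in the third quartile than in the first in every library. The median depth was also higher at each step, reaching 5318 to 6747.5 UMIs in the last, and its part in these steps was not tested.

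**Figure D3:**
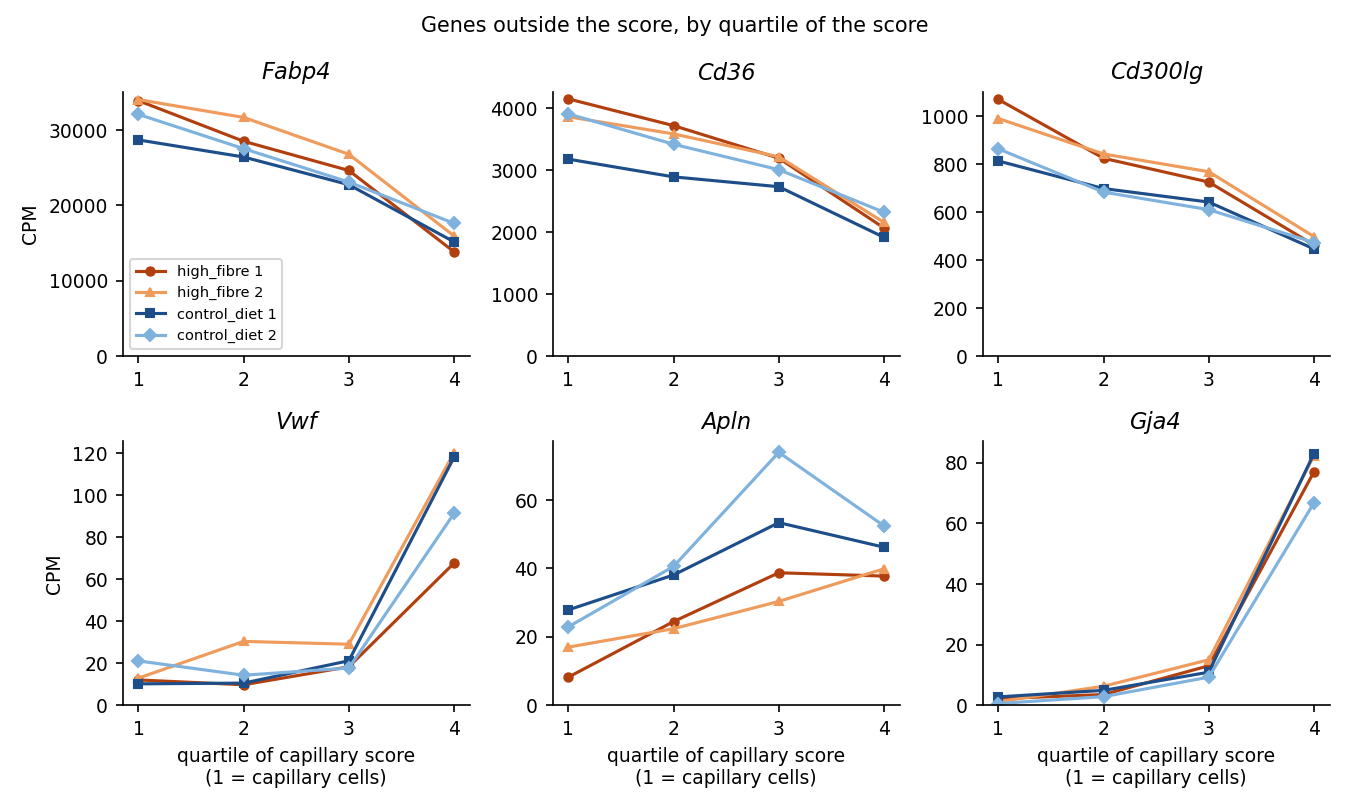
CPM (y axes, from 0) of 6 genes outside the rule, by quartile of the capillary score (x axis, 1 being the capillary cells), 1 line per library. Fabp4, Cd36 and Cd300lg are lower at each step in all 4 libraries, while Gja4 is near 0 in the capillary cells and reaches 66.8 to 83.1 CPM in the last quartile.

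Between the diets, few genes differed in capillary cells. Counts summed per library were compared with edgeR's quasi-likelihood test, and a gene was called at a Benjamini-Hochberg adjusted p below 0.05 over all 9371 genes tested. In all 12 genes were called, 8 higher and 4 lower in high_fibre, which is 0.128% of the genes tested (0.0854% higher and 0.0427% lower). Among the 8 is Timp4, a rule gene whose UMIs helped choose the cells, so its call is only a description. At an unadjusted p below 0.05 there were 493 genes, where 468.55 would be expected with no difference. The libraries of the 2 groups did not overlap for 33.1% of all genes tested, so that separation alone is common here. The count was not stable: leaving out 1 library gave 24 (without high_fibre 1), 98 (without high_fibre 2), 52 (without control_diet 1) and 51 (without control_diet 2) called genes. DESeq2 called 1 gene, Cldn5.

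Cldn5, the claudin of endothelial tight junctions, was the clearest of the 12. It had 1779 and 1543 CPM in the high_fibre capillary cells and 866 and 1015 CPM in the control_diet capillary cells, means of 1661 ± 166 and 940 ± 105 (SD, n = 2 each). The groups did not overlap, and the log2 fold change was 0.83 (SE 0.116, edgeR adjusted p = 0.00138). It was called without each library in turn, at 0.69 to 0.95. It was not called within either sex class, and its level was higher in Y-only than in Xist-only cells in 4 of 4 libraries (log2 ratios of 1.11 and 0.19 in high_fibre, 0.02 and 0.46 in control_diet), while the share of Y-only cells ran from 74.5% in high_fibre 1 to 16.8% in control_diet 1. The part of the sex mix in its fold was not tested beyond the values by sex class given below. Its UMIs were spread over 79.8% to 87.9% of capillary cells, and no single cell gave more than 3.15% of them. In the other endothelial cells Cldn5 stood at 1023 and 896 CPM against 681 and 712 CPM, a log2 fold change of 0.46 that was not called (edgeR adjusted p = 0.234). It did not extend to its list: of the 20 junction genes tested 5 had a log2 fold change above 0 and 15 below, with a median of -0.08 (all genes 0.00), and Cldn5 was the only one called. Cdh5 stood at 1337 and 1404 CPM against 1287 and 1523 CPM and Tjp1, the scaffold ZO-1, at 268 and 250.0 CPM against 257 and 297 CPM, both overlapping between groups.

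The difference of the diet effect between capillary and other endothelial cells was tested with the library as a block. Cldn5 was the 1 gene called of 11424 (0.00875%), with a log2 difference of 0.38 (SE 0.0607, edgeR adjusted p = 0.000465). The call was lost without control_diet 1 (0.30, adjusted p = 0.751) and without control_diet 2 (0.46, adjusted p = 0.192), with DESeq2 (adjusted p = 0.839), with the top 15% of cells (0.26, adjusted p = 1) and without barcodes found in 2 or more libraries (0.32, adjusted p = 0.203). It was also lost with 1 score threshold over all libraries, with no UMI of the excluded lineage genes allowed, and within each sex class. The call was kept under 10 of 19 alternatives, and the difference was above 0 under all 19, at 0.22 to 0.46.

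Timp4 was the only rule gene called by diet in capillary cells. It had 1831 and 1447 CPM in high_fibre and 1032 and 1146 CPM in control_diet, with no overlap, a log2 fold change of 0.60 (SE 0.121, edgeR adjusted p = 0.0374). Since the score uses Timp4, the same test was read over all endothelial cells, a set not chosen by the score: there it had 754 and 642 CPM against 433 and 474 CPM, 0.62, and was not called (edgeR adjusted p = 0.113), nor was any other rule gene, in a fit that called 10 of 12256 genes (0.0816%). The capillary call was lost under 10 of 20 alternatives. Among these were 1 score threshold over all libraries (0.42, edgeR adjusted p = 0.299), DESeq2 (0.60, adjusted p = 0.311) and no shared barcodes (0.60, edgeR adjusted p = 0.0524). Without high_fibre 1 the log2 fold change of Timp4 was 0.39. The other rule genes had log2 fold changes of 0.26 for Gpihbp1, 0.17 for Rgcc and Aqp1, 0.03 for Car4 and -0.18 for C1qtnf9. By construction the class takes the same share of cells in every library and a higher threshold in high_fibre, so these 6 values are a description of the class.

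On the GRCm38 annotation Cldn5 lies on chromosome 16 at 18776847-18778262 on the plus strand with no overlapping gene, and Timp4 on chromosome 6 at 115241892-115252205 on the minus strand, overlapping Syn2 and Gm17482 on the opposite strand. The 300 bases around their RefSeq starts (250 before and 50 after, GRCm38.p6, 5′ to 3′ on the gene's strand) are shown because the text above turns on these genes, Cldn5 for its diet difference and Timp4, a rule gene, as a description of the class. Capitals mark CAGGAA, a core of ETS factor sites, and CACCC, a core of KLF factor sites, on either strand, with no overlap between them.
Cldn5 (chr16:18776597-18776896, plus strand): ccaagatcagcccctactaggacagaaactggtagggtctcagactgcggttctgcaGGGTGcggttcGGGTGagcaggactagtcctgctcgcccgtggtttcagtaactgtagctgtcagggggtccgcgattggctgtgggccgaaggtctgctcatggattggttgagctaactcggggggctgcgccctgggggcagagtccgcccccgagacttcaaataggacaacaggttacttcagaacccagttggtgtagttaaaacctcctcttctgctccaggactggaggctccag
Timp4 (chr6:115252156-115252455, minus strand): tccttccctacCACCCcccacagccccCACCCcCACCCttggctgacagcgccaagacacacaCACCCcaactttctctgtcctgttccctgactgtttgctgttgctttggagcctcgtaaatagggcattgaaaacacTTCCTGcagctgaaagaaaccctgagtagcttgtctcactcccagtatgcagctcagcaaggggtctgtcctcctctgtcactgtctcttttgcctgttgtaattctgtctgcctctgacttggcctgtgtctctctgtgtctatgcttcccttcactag
Cldn5 held 0 ETS and 2 KLF cores and Timp4 1 ETS and 4 KLF cores in these windows. Of 32544 promoters of the same length 30.5% held CAGGAA and 57.7% held CACCC, so the matches are a description of the letters and not of binding.

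Of the remaining 6 genes called higher, each is a transcript of another cell lineage or of antigen presentation and was sparse in capillary cells. Cd74, which chaperones MHC class II molecules, had 57.7 and 69.7 CPM in high_fibre and 26.5 and 27.8 CPM in control_diet (1.25, SE 0.188, edgeR adjusted p = 0.00223). H2-Eb1, an MHC class II beta chain, had 20.3 and 22.7 CPM against 6.04 and 6.64 CPM (1.77, adjusted p = 0.0115). Both were called without each library in turn but in neither sex class (Cd74 0.96 in Y-only and 0.99 in Xist-only cells, H2-Eb1 2.17 and 1.67, adjusted p = 0.236 to 0.825), and all 4 MHC class II genes tested were above 0, 2 of them called. The MHC class II transcripts summed to 120 and 135 CPM in high_fibre and 56.7 and 56.2 CPM in control_diet, and Cd74 was found in 19.95% and 22.3% of capillary cells against 12.2% and 12.3%. In the other endothelial cells Cd74 had 252 and 102 CPM against 98.3 and 37.1 CPM (1.36, adjusted p = 0.956). With the top 35% of endothelial cells taken, Cd74 stood at 0.75 (adjusted p = 0.997).

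C1qa and C1qb, complement subunits made by macrophages, had 23.6 and 32.8 CPM against 6.51 and 12.1 CPM (1.67, edgeR adjusted p = 0.0115) and 24.2 and 38.5 CPM against 11.2 and 14.5 CPM (1.34, adjusted p = 0.0352). The groups did not overlap for either gene. Both genes are capped by the rule, and no capillary cell held more than 2 UMIs of C1qa or 3 of C1qb. C1qa lost its call without control_diet 1 (1.25, adjusted p = 0.0678), and C1qb without high_fibre 2 (0.96, adjusted p = 0.302) and without control_diet 1 (1.15, adjusted p = 0.088). In Y-only cells neither was called (2.52, adjusted p = 0.786, and 0.77, adjusted p = 0.906). All 7 macrophage genes tested were above 0, with a median of 1.07, where 50.2% of all genes tested were above 0. The macrophage list summed to 176 and 297 CPM in high_fibre and 88.3 and 129 CPM in control_diet, with no macrophage gene at 0 in all libraries. Igkc, the kappa light chain of B cells, had 37 and 43 UMIs against 14 and 6 (1.83, adjusted p = 0.0291) and lost its call without high_fibre 1 (1.70, adjusted p = 0.0527) and with the top 35% of endothelial cells (0.44, adjusted p = 0.997). Hbb-bs, adult beta globin, had 53.8 and 36.5 CPM against 9.30 and 16.9 CPM (1.81, adjusted p = 0.00839) and was called without each library in turn, but not with the top 15% of cells (1.55, adjusted p = 0.391) or in Y-only cells (1.16, adjusted p = 0.848). The erythroid list summed to 99.97 and 64.0 CPM against 17.7 and 32.0 CPM. In the other endothelial cells the sums of both lists were also higher in high_fibre. There all 10 macrophage genes tested were above 0, with a median of 1.31 and sums of 361 and 305 CPM against 97.7 and 98.75 CPM. Their erythroid list summed to 8464 and 2653 CPM against 1531 and 1933 CPM, but Hbb-bs was uneven between their libraries and sex classes. In their Y-only cells it had 5055 and 1651 CPM against 5.79 and 81.2 CPM (6.16, edgeR adjusted p = 0.955). In their Xist-only cells it had 54.6 and 1725 CPM against 18.2 and 2210 CPM, overlapping between groups (-0.33, edgeR adjusted p = 0.999). Fibroblast genes summed to 293 and 434 CPM against 289 and 171 CPM and neutrophil genes to 10.4 and 149 CPM against 0.93 and 7.25 CPM. With no UMI of the 6 excluded lineage genes allowed in a cell, 213, 229, 245 and 192 capillary cells remained, and 4 genes were called in place of 12. Hbb-bs was still called (1.83, edgeR adjusted p = 0.0176). Cd74 (1.20, adjusted p = 0.115), H2-Eb1 (2.03, adjusted p = 0.173) and Igkc (2.05, adjusted p = 0.151) were not, in this smaller set of cells. The C1qa and C1qb UMIs of these cells are themselves among those excluded there. The part of RNA from other cells in these calls was not tested further.

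Of the 4 genes called lower, Hist1h1c and Tmsb10 had the most UMIs. Hist1h1c, a linker histone, had 85.7 and 95.6 CPM in high_fibre and 170 and 147 CPM in control_diet (-0.80, SE 0.140, edgeR adjusted p = 0.0115) and was called without each library in turn. It was not called with the score on thinned cells (-0.52, adjusted p = 0.586), with no other-lineage UMI (-0.68, adjusted p = 0.174), with the top 15% or 35% of cells (adjusted p = 0.0731 and 0.0871) or in Y-only cells (-0.58, adjusted p = 0.848). Tmsb10, thymosin beta 10, which binds actin monomers, had 982 and 985 CPM against 1376 and 1474 CPM (-0.53, adjusted p = 0.0352). Its groups did not overlap, but the adjusted p passed 0.05 without high_fibre 1 (0.0679), without high_fibre 2 (0.0714) and without control_diet 2 (0.0631). In Y-only cells it stood at -0.23 (adjusted p = 0.912) and in Xist-only cells at -0.64 (adjusted p = 0.00242).

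The other 2 rest on few molecules. Slc15a2, a proton-coupled peptide transporter, had 1 and 5 UMIs in high_fibre and 22 and 16 in control_diet (-2.78, edgeR adjusted p = 0.0352). It was the 1 gene also called in the other endothelial cells, with 0.95 and 0.53 CPM against 10.2 and 9.38 CPM (-3.76, adjusted p = 0.00479), while its capillary call was lost without high_fibre 1 (adjusted p = 0.176), control_diet 1 (0.209) or control_diet 2 (0.0523). Igfbp5, a binding protein of insulin-like growth factors, had 7 and 18 UMIs in high_fibre and 33 and 45 in control_diet (-1.83, adjusted p = 0.0352). A single cell held 72.7% of the Igfbp5 UMIs of control_diet 1, another 35.6% of those of control_diet 2, and the call was lost without high_fibre 1 (adjusted p = 0.0581) or control_diet 2 (0.134). Igfbp5 stood at -3.84 in Y-only cells (adjusted p = 0.0121) and -0.41 in Xist-only cells (adjusted p = 0.995). It stood at -0.95 with no other-lineage UMI (adjusted p = 0.862), and at -3.38 with the top 15% of cells. In the other endothelial cells Igfbp5 had the opposite sign and was not called. There it stood at 0.90 in Y-only cells (145 and 205 CPM against 76.6 and 109 CPM, edgeR adjusted p = 0.596). In their Xist-only cells it stood at 1.12 (317 and 149 CPM against 153 and 45.9 CPM, adjusted p = 0.999). Without barcodes shared between libraries 8 genes were called, and C1qb (1.31, adjusted p = 0.0524), Slc15a2 (-3.05, adjusted p = 0.0524) and Igfbp5 (-1.39, adjusted p = 0.214) were, like Timp4, no longer among them.

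**Figure D4:**
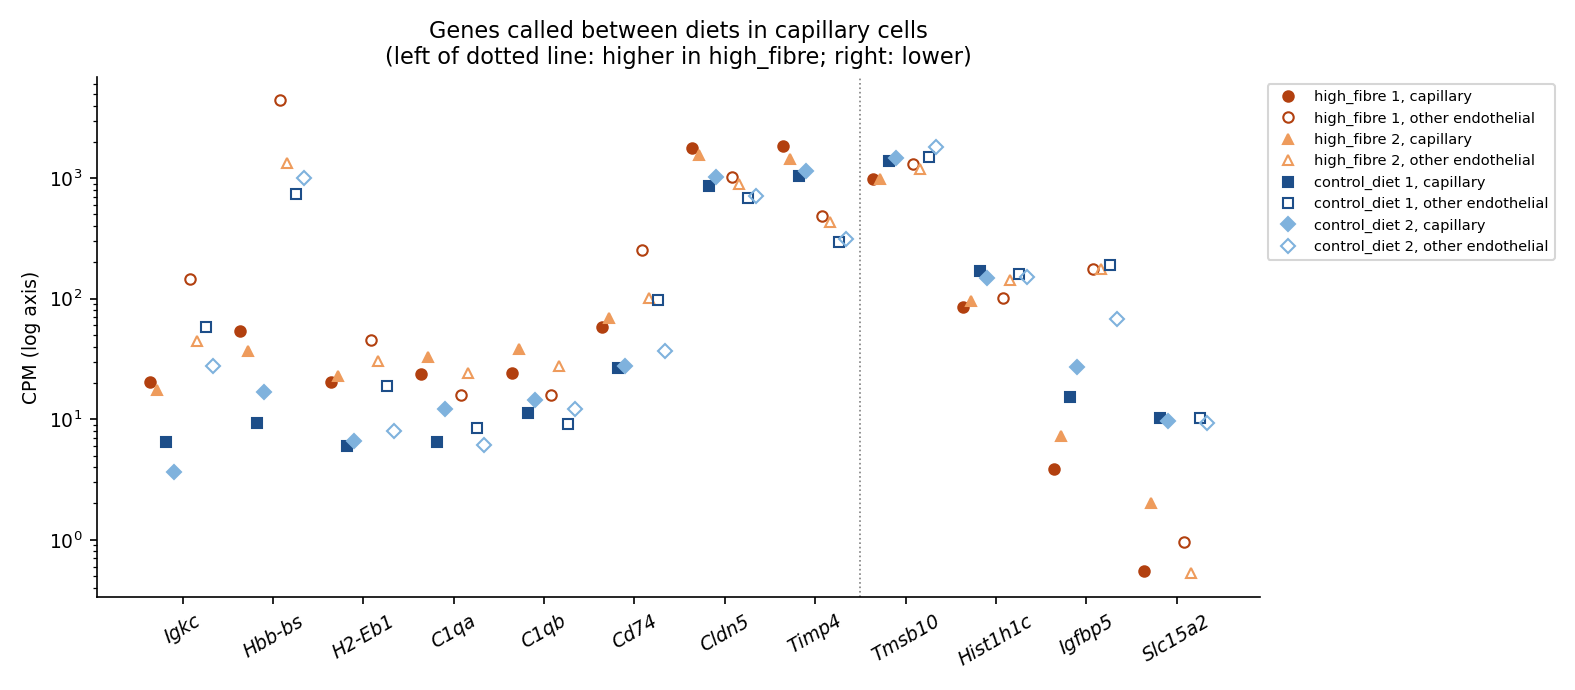
CPM on a log axis of the 12 genes called between diets in capillary cells (filled), beside the other endothelial cells (open), with the high_fibre libraries left of the control_diet libraries. The filled groups separate for every gene, while for Igkc and Igfbp5 the open points overlap between diets. Timp4 is a rule gene, so its points are a description.

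No gene of the lists of capillary markers outside the rule and of fatty acid and lipoprotein handling was called. Of the 12 capillary genes 10 had a log2 fold change above 0, with a median of 0.18 (0.11 without high_fibre 1, up to 0.26 without control_diet 2), and 6 were higher in high_fibre without overlap, against 16.2% of all genes tested. Lpl had 1415 and 1133 CPM in high_fibre and 975 and 872 CPM in control_diet (0.47, edgeR adjusted p = 0.189). Rbp7 had 587 and 396 CPM against 287 and 317 CPM (0.71, adjusted p = 0.443). Angptl4 had 98.9 and 121 CPM against 47.4 and 74.9 CPM (0.88, SE 0.180, adjusted p = 0.0587). None of these overlapped, and none passed the threshold. Of 20 fatty acid and lipoprotein genes tested 11 were above 0 and 9 below, with a median of 0.04, and none was called. Fabp4 had 33895 and 34040 CPM against 28692 and 32078 CPM, a log2 fold change of 0.17.

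The interferon, tip cell, heat shock and short-chain fatty acid lists held no called gene. Of 25 interferon response genes 22 were below 0, with a median of -0.19 and a sum of 4898 and 5371 CPM in high_fibre against 5911 and 6129 CPM in control_diet. Bst2, tetherin, had 634 and 729 CPM against 794 and 1004 CPM (-0.39, edgeR adjusted p = 0.417). Of 17 angiogenic tip genes 13 were below 0, with a median of -0.21 (-0.11 without control_diet 1, -0.32 without high_fibre 2, -0.36 without control_diet 2), and 9 were lower without overlap, against 17.0% of all genes tested. Apln, the apelin peptide of sprouting endothelium, had 8.24 and 17.0 CPM against 27.9 and 22.95 CPM (-0.96, adjusted p = 0.396). All 16 heat shock genes were above 0, with a median of 0.63, but the sums of 16596 and 10144 CPM in high_fibre against 9437 and 9083 CPM in control_diet put high_fibre 1 apart, and without it 10 of 16 were above 0 with a median of 0.11. Without high_fibre 2 the median was 1.04. Short-chain fatty acids are what gut bacteria make from resistant starch, and their receptors Ffar2, Ffar3 and Hcar2 had no UMI in the capillary cells of any library. With 3 UMIs as the limit that a count of 0 allows, the files allow a level of up to 1.22 to 1.81 CPM per library, counting error only. Of 6 genes tested for short-chain fatty acid sensing and transport 2 were above 0, with none called.

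In the other endothelial cells 8 of 12019 genes were called by diet (0.0666%), 6 higher (0.0499%) and 2 lower (0.0166%), and Slc15a2 was the only one shared with the 12 of the capillary cells. It is 8.33% of the capillary list and 12.5% of the other list, and both compare the same libraries. D830030K20Rik, called lower in the other endothelial cells (-0.98, edgeR adjusted p = 0.0224), had 33.5 and 25.5 CPM against 35.8 and 33.8 CPM in capillary cells and was not called there. Mt1, metallothionein 1, called higher in the other cells (1.62, adjusted p = 0.0152), had 13.2 and 19.9 CPM against 6.51 and 7.85 CPM in capillary cells, 1.24, not called (adjusted p = 0.257).

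Capillary cells were also split by their sex-linked transcripts, after the results above had been seen. The high_fibre libraries held 196 and 165 Y-only capillary cells, against 62 and 92 in the control_diet libraries, and 67 and 244 Xist-only cells, against 307 and 134. Among Y-only cells Lpl had 1460 and 1256 CPM in high_fibre and 718 and 709 CPM in control_diet (0.96, SE 0.155, edgeR adjusted p = 0.0193). It was 1 of 3 genes called of 6996 (0.0429%). Among Xist-only cells Lpl had 1097 and 1018 CPM against 1057 and 989 CPM (0.03, edgeR adjusted p = 0.995), in a fit that called 14 of 7855 genes (0.178%). The diets were thus apart in the first class of cells and overlapped in the second.

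Angptl4 was not called in either class. It had 113 and 178 CPM in high_fibre and 56.9 and 63.6 CPM in control_diet among Y-only cells (1.27, edgeR adjusted p = 0.198), and 43.2 and 72.5 CPM against 47.4 and 79.5 CPM among Xist-only cells (0.11, adjusted p = 0.995). Timp4 chose the cells, so its values are a description: it had 1836 and 1608 CPM in high_fibre against 965 and 1065 CPM in control_diet among Y-only cells (0.79), and 1348 and 1206 CPM against 1022 and 1325 CPM among Xist-only cells (0.11). The Timp4 groups overlapped among Xist-only cells. Cldn5 had 1864 and 1649 CPM in high_fibre against 870 and 1121 CPM in control_diet among Y-only cells (0.84, adjusted p = 0.101), and 865 and 1441 CPM against 859 and 816 CPM among Xist-only cells (0.49, adjusted p = 0.0825). The groups were apart among Y-only cells, while among Xist-only cells high_fibre 1 and control_diet 1 were close, at 865 and 859 CPM.

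The difference of the diet effect between the sex classes was tested with the library as a block. Y-only and Xist-only cells of a library come from different animals, whose number is not given. Sex and animal therefore cannot be told apart in this difference. In capillary cells none of 7924 genes was called by edgeR (0%), with 347 at an unadjusted p below 0.05, and DESeq2 called none. Lpl had the log2 difference 0.89 (SE 0.179, edgeR adjusted p = 0.0566), Angptl4 1.40 (adjusted p = 0.253) and Cldn5 0.39 (adjusted p = 0.995). Lpl passed the threshold without high_fibre 2 (0.98, adjusted p = 0.0226). Over all endothelial cells, which hold the capillary cells and are deeper, 8 of 11228 genes were called (0.0713%). They included Lpl at 0.80 (SE 0.135, adjusted p = 0.0404) and Angptl4 at 1.34 (SE 0.200, adjusted p = 0.0246), while Timp4 at 0.73 was not called (adjusted p = 0.0864). Both calls were lost without each library in turn, at 0.63 to 0.97 for Lpl and 1.14 to 1.52 for Angptl4.

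**Figure D5:**
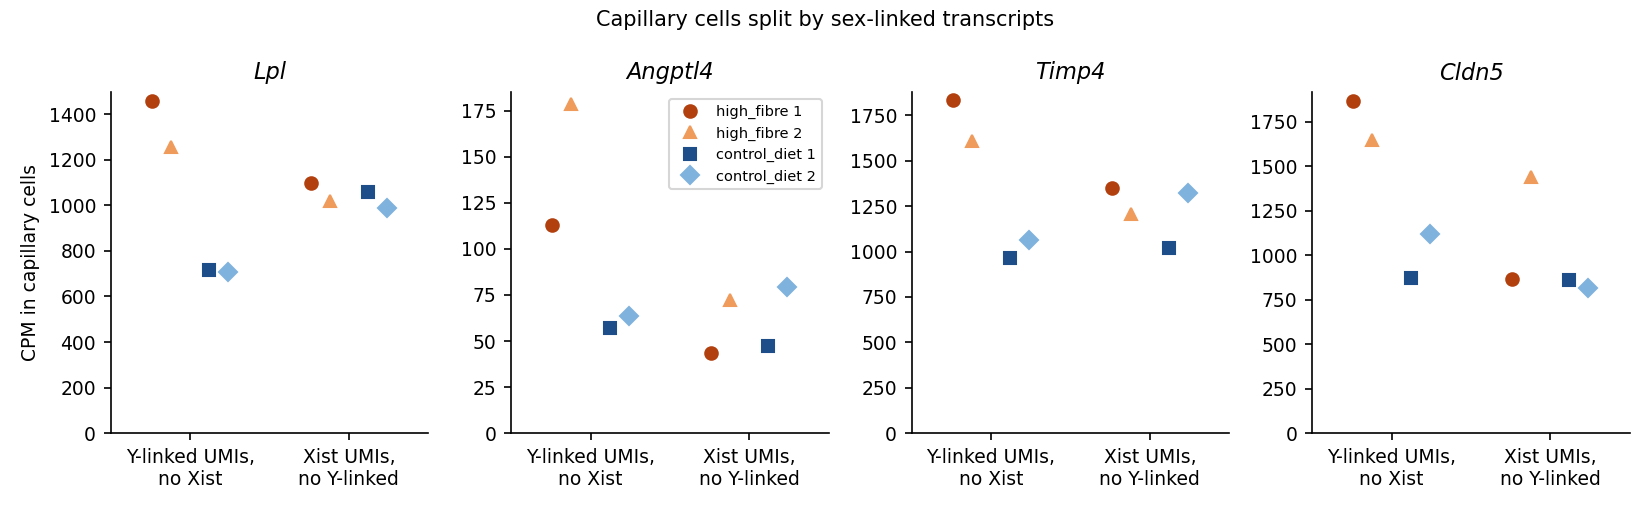
CPM (y axes, from 0) of Lpl, Angptl4, Timp4 and Cldn5 in capillary cells of each library, split into Y-only and Xist-only cells, with high_fibre left of control_diet. Lpl separates the diets in the first class, 1460 and 1256 CPM against 718 and 709 CPM, and lies between 989 and 1097 CPM in the second.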

How the data were processed

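Single-cell UMI count matrices of 4 heart libraries, 2 per maternal diet, were used as deposited by the authors. Per the labels, libraries were made with 10x Genomics 3' chemistry. The authors obtained the counts with Cell Ranger 3.1.0 on mm10, per the submitters' processing notes, and no further normalization was found in the counts, which are whole numbers over 31053 genes. Barcodes with at least 1000 UMIs and at most 20% mitochondrial UMIs were kept, and endothelial and capillary cells were chosen by the thresholds given in the report. No doublet caller was run: the limits on other lineages' genes, and an alternative without barcodes above the 95th UMI percentile, stood in for it. The members and gene lists were chosen with earlier results of these data known.

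UMIs of a class were added up within each library, the unit of replication, and these sums were tested with edgeR 4.0.16 (quasi-likelihood test, robust, TMM scaling, low-count filter with a minimum of 10) under R 4.3.3, with limma 3.58.1. P-values were adjusted by the Benjamini-Hochberg method over all genes tested. DESeq2 1.42.0 was an alternative. Further alternatives were other scalings, no filter, each library left out, a replicate block, and other cell selections. Those by sex class and by shared barcodes, and the tests of the sex classes, were added after the data had been seen. Levels are UMIs scaled to a class total of 1000000 (CPM), without TMM factors. Ratios of capillary over other endothelial cells use a pseudocount of 5 CPM. Named genes were the called genes with the largest changes, the rule genes, the 3 most abundant members of each list with any called member, and the 15 highest and 15 lowest ratios. Other named genes (among them Abca1, Angptl4, Apln, Btnl9, Gja4, Id1, Lpl, Pparg, Rbp7 and Tcf15) were picked from the lists after their values were seen. Figures and summaries used Python 3.11.15, numpy 2.4.6, scipy 1.17.1, pandas 2.3.3 and matplotlib 3.10.9. Gene positions came from a GRCm38 annotation, in which 99.6% of the genes matched. The statistical steps were tested on simulated data.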

Additional observations from a re-analysis of the deposited data

Results flagged for a closer look

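The diet effect on Cldn5 differed between capillary and other endothelial cells, with a log2 difference of 0.383 by edgeR's interaction test (adjusted p = 0.000465), a call that was lost without control_diet 1 (adjusted p = 0.751) or control_diet 2 (adjusted p = 0.192).

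Over all endothelial cells, the diet effect in Y-only cells minus that in Xist-only cells was past the threshold for 8 genes. For 2 genes of lipoprotein lipase action it was 0.797 (Lpl) and 1.34 (Angptl4). It was 0.858 for Pkp4, a plaque protein of cell junctions, 2.57 for Myh11, a smooth muscle myosin, and -1.25 for Mgp, a matrix protein. It was 5.83 for Ccl5 and -4.11 for Ccr7, a chemokine and a chemokine receptor of immune cells, and -2.74 for Gm21541. How the UMIs of Ccl5, Ccr7 and Myh11 were spread over cells was not examined. Y-only and Xist-only cells of a library come from different animals, so sex and animal cannot be told apart here. DESeq2 called 1 gene in the same comparison, and 1 to 4 genes were called when a library was left out.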

How the results depend on the processing

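With 2 libraries a group, counts of called genes moved with most settings. Between diets in capillary cells, 12 genes were called, against 63 with no filter on low counts, 7 with total counts only, 1 with DESeq2, 5 with the top 15% of endothelial cells, 3 with the score on thinned cells, 4 with no UMI of the 6 other-lineage genes, 3 in Y-only cells, and 24 to 98 with 1 library left out. In other endothelial cells the 8 calls became 234 with no filter, 13 with total counts only, 34 with DESeq2, 18 with the top 35%, 5 without the deepest barcodes, 68 with no other-lineage UMI, 2 in Y-only cells, and 8 to 68 with 1 library left out. With the replicate block the counts were 34 in capillary and 19 in other endothelial cells. The replicate numbers were not taken as pairs, since there are only 2 and same-numbered libraries deviated together with correlations of 0.0742 and 0.251.

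For the difference between the classes, the 1 call became 3 with no filter, 0 with DESeq2, 3 with the top 15%, 18 with the top 35%, 2 with 1 score threshold over all libraries, 2 without the deepest barcodes, 0 with no other-lineage UMI, 0 in Xist-only cells, 0 without shared barcodes, and 0 to 10 with 1 library left out. Of the 6 rule genes over all endothelial cells, none was called by edgeR, against 1 each with no filter, total counts only, DESeq2 and Y-only cells, and 0 to 1 with 1 library left out. For the sex classes, the 0 calls in capillary cells became 2 with no filter and 1 to 24 with 1 library left out, and the 8 in all endothelial cells became 40 with no filter, 1 with DESeq2 and 1 to 4 with 1 library left out. The cause of these changes was not tested. No gene called by diet in capillary cells reversed its direction there under any setting run, and neither did the Cldn5 difference between the classes. Of the capillary over other ratios recomputed, 91 moved by less than the spread between libraries and 29 by more, 15 of these with a pseudocount of 1 CPM. The called genes with the fewest UMIs, such as Slc15a2 with 1 and 5 in the high_fibre libraries, carry wide counting error.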
